A study of Mus musculus with 12 samples.

Results

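The genes described here encode the subunits of the 26S proteasome and the chaperones that assemble its regulatory particle. They are all genes whose symbol is Psma, Psmb, Psmc or Psmd followed by a number, without Psmb8, Psmb9 and Psmb10, the catalytic subunits of the immunoproteasome. The rule took 36 of the 29957 genes measured in microglia and 36 of the 14663 measured in whole hippocampus. By role, 7 genes encode the alpha ring of the 20S core, 7 the beta ring, 6 the ATPase ring of the 19S regulatory particle, 11 other 19S subunits and 3 the 19S assembly chaperones. The remaining 2, Psma8 and Psmb11, replace a core subunit in the testis and in the thymus.

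RNA was sequenced from 12 libraries of C57BL/6 mice, in 4 groups of 3, with no genetic change and no treatment named in the labels. Hippocampal microglia, the resident macrophages of that brain region, came from mice of 24 months, set against mice of 3 months. Whole hippocampus came from mice of 18 months, set against mice of 6 months. The sources used here give neither the method of isolating microglia nor whether each library is its own mouse, and the p-values cover the spread from library to library, which may be technical.

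The proteasome degrades proteins that carry chains of ubiquitin. The 19S particle binds the chain, removes it and unfolds the substrate with its ATPase ring, and the beta ring inside the 20S core cuts the unfolded chain. In cells whose proteasome is inhibited, the transcription factor NRF1 (Nfe2l1) is known to raise subunit genes together through antioxidant response elements in their promoters, and NRF2 (Nfe2l2), which binds like elements, is known to raise subunit genes under oxidative stress.

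Stretches of promoter that hold this element are shown first, since members of the complex are known to be raised together through it. RefSeq promoters (build GRCm38.p6, 250 bases before to 50 after the start of the gene) were found for 29 of the 36 genes, as 31 promoters, and searched on both strands. The core of the antioxidant response element, TGACNNNGC, was present in 5 of the 31 promoters (16.1%), against 12.4% of the 32851 mouse promoters. The matches and 10 bases on either side, where the promoter reaches that far, are printed 5′ to 3′ on the strand that carries the match, with the element in capitals.
Psmb5 (chr14:54618024-54618052, minus strand): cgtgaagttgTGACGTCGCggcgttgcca
Psmb6 (chr11:70525338-70525366, plus strand): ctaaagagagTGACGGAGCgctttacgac
Psmc6 (chr14:45329587-45329615, minus strand): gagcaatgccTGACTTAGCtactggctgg
Psmd12 (chr11:107479278-107479299, minus strand): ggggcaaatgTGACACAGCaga
Psmd9 (chr5:123228149-123228177, plus strand): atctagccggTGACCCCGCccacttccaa
The 5 genes thus include 2 of the catalytic subunits, an ATPase, a 19S subunit and an assembly chaperone. CCAAT boxes, the sites of the factor NF-Y, were present in 12 of the 31 promoters (38.7%), against 37.4% of all promoters. Psmd11, whose microglial values did not overlap between the ages, was not among the 12 genes with a match. Whether it was among the 29 genes searched is not given here, so its absence is not a result. The CCAAT boxes of Psmc1 and Psmd14 are shown, in capitals, because the microglial values of these genes did not overlap either.
Psmc1 (chr12:100110017-100110041, plus strand): acatgtttaaCCAATccttgtacca
Psmd14, upstream of its start (chr2:61711525-61711549, minus strand): tttcacagtgCCAATcctgcttcac
Psmd14, just after its start (chr2:61711688-61711712, plus strand): ccggcggactCCAATtggcggtaga
Psmd14, overlapping the last on the other strand (chr2:61711691-61711715, minus strand): tcttctaccgCCAATtggagtccgc
Both shares lay close to those of all promoters, and a match is a description of the letters and does not show that a factor binds there.

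The microglia libraries held 8068023 to 14217142 estimated counts. Of 7840 genes with a mean above 10 CPM (counts scaled to a fixed library size), 394 (5.03%) had no count in replicate 1 of the 3 month microglia, 186 (2.37%) in replicate 1 of the 24 month microglia, and 26 to 62 in each other library. Microglial markers summed to 42959 to 58846 CPM at 24 months and 60642 to 65072 CPM at 3 months. Markers of neutrophils and monocytes, 7 genes, summed to 1615.5 CPM in replicate 1 of 24 months, to 50.02 and 3.42 CPM in replicates 2 and 3, and to between 1.97 and 9.35 CPM at 3 months. In replicate 1 of 24 months S100a8 (1289 CPM) and S100a9 (319 CPM) made up nearly all of that sum. Ly6g and Plac8 were at 0 there, and Ccr2 was highest in replicate 2 of 24 months, at 21.8 CPM. Astrocyte markers, 6 genes, summed to 332.7 to 456.5 CPM at 24 months and 128.5 to 266.6 CPM at 3 months. Slc1a3 made up most of that sum, at 298.1, 383.7 and 284.9 CPM at 24 months, against 110.1, 223.7 and 246.2 CPM at 3 months. Aqp4 was at 0 in every library of 24 months. Endothelial markers, 6 genes, summed to 51.8 to 131.1 CPM at 24 months and 23.5 to 45.0 CPM at 3 months, with Pecam1 the highest of them in each library. Mural and smooth muscle markers, 6 genes, summed to 288.2, 38.8 and 0.759 CPM at 24 months and to 0.299 to 0.748 CPM at 3 months. In replicate 1 of 24 months that was mostly Acta2 (215.0 CPM) and Tagln (64.4 CPM). Pdgfrb and Kcnj8 were at 0 in all 6 libraries. Neuronal markers, 8 genes, summed to 33.4 to 133.6 CPM at 24 months and 13.96 to 44.64 CPM at 3 months, with Tubb3 and Slc17a7 at 0 in all 6 libraries. Camk2a was the highest of them in each library, at 116.7, 38.2 and 23.4 CPM at 24 months, against 44.6, 9.60 and 23.1 CPM at 3 months. Oligodendrocyte markers, 6 genes, summed to 177.5 to 262.6 CPM at 24 months and 172.4 to 200.9 CPM at 3 months, with Mog at 0 in all 6 libraries. In whole hippocampus, 8 neuronal markers summed to 14888 to 15267 normalized counts at 18 months and 12914 to 14452 at 6 months. Camk2a made up most of that sum, at 9209, 8897 and 8408 at 18 months, against 7986, 6904 and 7519 at 6 months. Rbfox3 was also higher without overlap. Slc17a7 was lower without overlap, at 123.8, 139.0 and 136.5 at 18 months, against 173.3, 165.7 and 160.4 at 6 months. Snap25, Syt1, Tubb3, Gad1 and Prox1 overlapped between the ages. The 8 microglial markers summed to 583.2 to 654.2 at 18 months and 478.3 to 542.5 at 6 months. The part of all these markers in the results on proteasome genes was not tested. In bulk samples fewer cells of a type and less RNA per cell cannot be told apart.

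In 24 month microglia, set against 3 month microglia, the proteasome genes had nearly the same summed mRNA, and their single values scattered around no change. All 36 genes passed the filter on low counts, and the sums were 4765, 4117 and 4806 CPM in the 3 libraries of 24 months, against 4702, 5125 and 4417 CPM in the 3 libraries of 3 months. The ages overlapped. At 24 months the sum averaged 4562.9 ± 386.4 CPM and at 3 months 4748.0 ± 356.0 CPM (SD, n = 3 each), a ratio of 0.961. Per transcript length, the genes took 0.612% ± 0.053 of all TPM (transcript shares scaled to a fixed total) at 24 months and 0.639% ± 0.039 at 3 months (SD, n = 3 each).

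No single gene passed the test (0 of 36 at an adjusted p under 0.05, edgeR's quasi-likelihood test, against 0% of the 10663 genes tested, in each direction). The smallest adjusted p was 0.898, for Psmd11. At an unadjusted p under 0.05 the count was also 0 of 36, where 3.52% of all genes tested were higher and 2.02% lower. That count rested on the setting, since Psmd11 was under 0.05 before adjustment in 5 of 12 alternatives. DESeq2 called 0 of the 36 as well, with 121 genes called higher and 20 lower in all. In the authors' deposited table for microglia, 243 of 12084 genes (2.01%) had an adjusted p under 0.05 but 0 of the 36 did, the smallest being 0.394 for Psmc1.

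The log2 changes (24 minus 3 months) had a median of -0.02, with quartiles of -0.18 and 0.18, against a median of 0.01 and quartiles of -0.46 and 0.62 over all genes tested. The value was above 0 in 18 of 36 genes, against 50.5% of all genes. None of the 36 exceeded 1 in either direction (26.2% of all genes did). The 95% interval of 21 of the 36 lay within -1 to 1 (11.1% of all genes), which is within a factor of 2. The genes other than Psma8 and Psmb11 lay at a median of the 87.6th percentile of level. Shares among genes of like level were not computed for these counts.

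**Figure D1:**
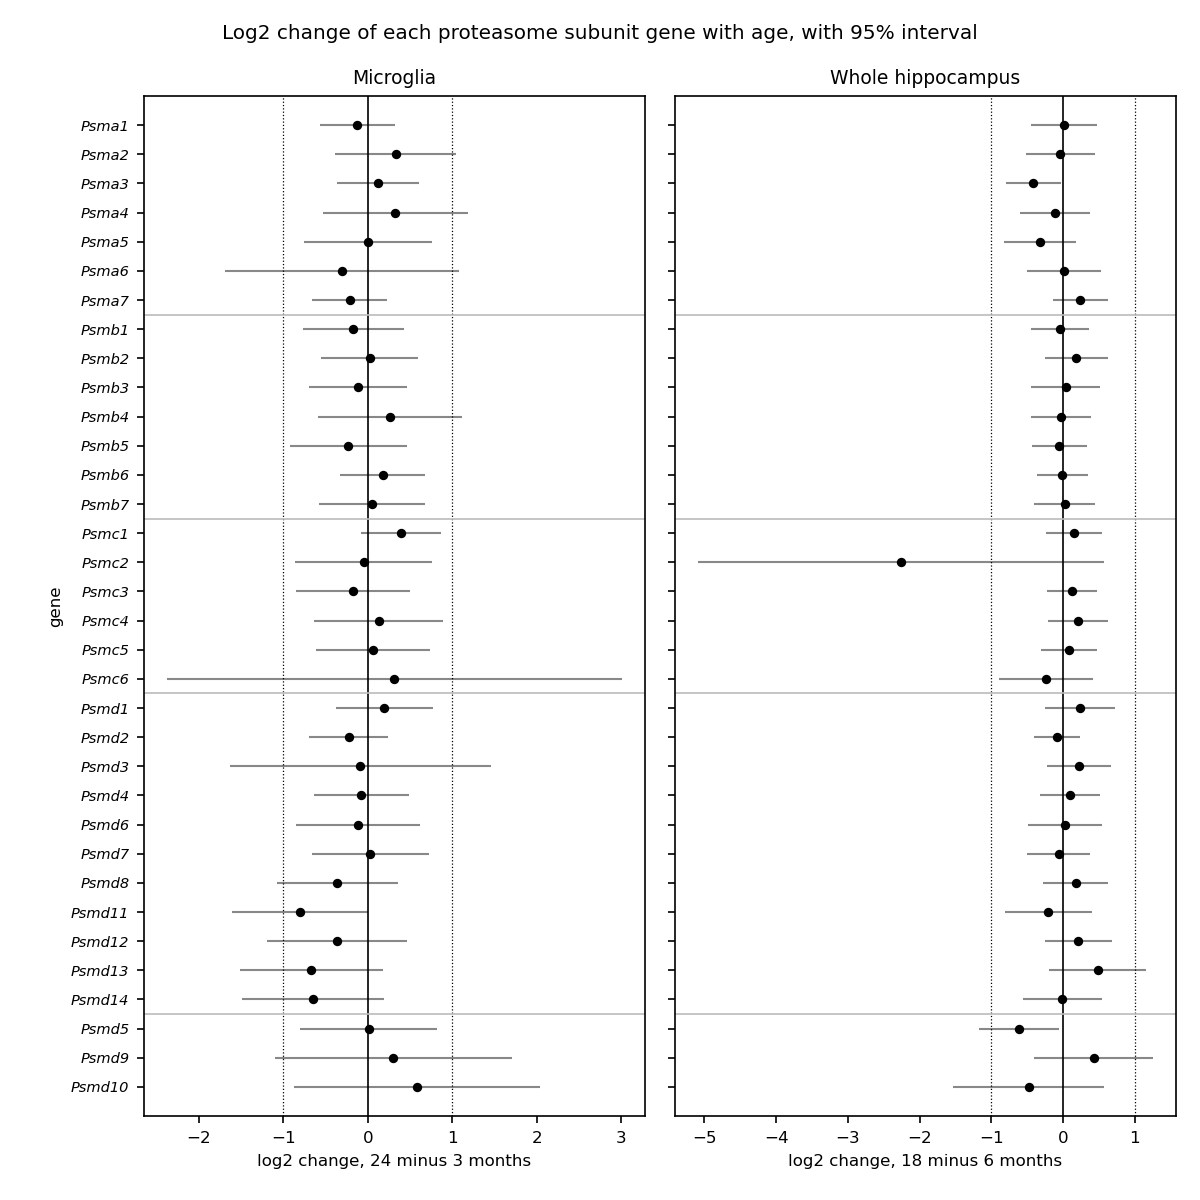
Log2 change with age of each proteasome subunit gene (points) with its 95% interval (bars), in microglia (left, 24 minus 3 months) and in whole hippocampus (right, 18 minus 6 months), in blocks from the alpha ring at the top to the 19S assembly chaperones at the bottom; dotted lines mark -1 and 1. Nearly all points lie close to 0, and the wide bar of Psmc2 in hippocampus rests on a library in which it is listed at 0.

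The alpha ring, the gate through which substrates enter the core, had 4 of 7 genes above 0 and a median log2 change of 0.00 in microglia. Psma7 had the highest TPM of the ring and its smallest p. It was at 217.2, 201.6 and 215.4 CPM at 24 months, against 280.6, 238.4 and 215.8 CPM at 3 months. The groups met at their edges, and the log2 change was -0.21 ± 0.19 (SE). Psma6 stood at 19.8 CPM in replicate 1 and at 119.8 and 119.0 CPM in the others at 24 months, against 103.8, 103.5 and 111.6 CPM at 3 months. Replicate 1 of 24 months thus lay far below every other library, and the log2 change was -0.30 ± 0.60 (SE) with it and 0.16 without it.

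The beta ring, which carries the active sites, had 4 of 7 genes above 0 and a median log2 change of 0.02. Psmb5, the subunit with chymotrypsin-like activity, was at 64.1, 104.3 and 100.1 CPM at 24 months, against 91.8, 125.8 and 97.2 CPM at 3 months, a log2 change of -0.23 ± 0.30 (SE). Psmb6, the subunit with caspase-like activity, was at 324.4, 226.8 and 267.6 CPM at 24 months, against 215.5, 278.8 and 230.7 CPM at 3 months, a log2 change of 0.18 ± 0.22 (SE). Psmb7, the subunit with trypsin-like activity, was at 84.3, 72.1 and 87.5 CPM at 24 months, against 75.3, 80.0 and 80.1 CPM at 3 months, a log2 change of 0.05 ± 0.27 (SE). The ages overlapped for all 3 catalytic subunits, and the 95% intervals were -0.93 to 0.47 for Psmb5, -0.33 to 0.68 for Psmb6 and -0.58 to 0.68 for Psmb7.

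The immunoproteasome counterparts of these 3 subunits were measured in the same libraries. Psmb8 had 1.82 ± 0.78 times the TPM of Psmb5 at 24 months and 1.42 ± 0.13 times at 3 months (SD, n = 3 each). By library this ratio was 2.65, 1.11 and 1.69 at 24 months, against 1.54, 1.29 and 1.42 at 3 months. The value of 2.65 came from the library with high S100a8 and S100a9. For Psmb9 and Psmb6 the ratio was 0.156 ± 0.038 at 24 months and 0.176 ± 0.025 at 3 months, and for Psmb10 and Psmb7 it was 1.15 ± 0.23 at 24 months and 1.42 ± 0.11 at 3 months (SD, n = 3 each). The ranges overlapped for all 3 pairs.

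The ATPase ring had 4 of 6 genes above 0 and a median log2 change of 0.09. Psmc1, the ATPase subunit Rpt2, was at 192.7, 153.8 and 182.8 CPM at 24 months, against 129.4, 133.5 and 139.0 CPM at 3 months. Every library of 24 months lay above every library of 3 months, and the log2 change was 0.40 ± 0.20 (SE; edgeR adjusted p = 0.967). Psmc3, with the highest TPM of the ring, was at 276.2, 215.7 and 284.6 CPM at 24 months, against 216.7, 419.5 and 240.8 CPM at 3 months, a log2 change of -0.18 ± 0.29 (SE). Psmc6 was at 46.7, 89.5 and 34.8 CPM at 24 months, against 76.1 and 60.5 CPM in replicates 2 and 3 and 0.896 CPM in replicate 1 of 3 months. The last value came from 12 counts in the library with the most genes at 0, and the standard error of its log2 change was 1.16.

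Of the other 19S subunits, 9 of 11 had a log2 change below 0, and the median was -0.23. Psmd11, a scaffold subunit of the 19S lid, was at 58.3, 129.6 and 141.3 CPM at 24 months, against 185.6, 213.1 and 175.0 CPM at 3 months. Each library of 24 months lay below those of 3 months, and the log2 change was -0.80 ± 0.35 (SE; edgeR adjusted p = 0.898). The library at 58.3 CPM was also the one with high S100a8 and S100a9, and without it the log2 change was -0.50. Psmd14, the deubiquitinase that cuts the ubiquitin chain from the substrate, was at 50.1, 36.3 and 49.8 CPM at 24 months, against 72.6, 83.3 and 57.7 CPM at 3 months. Its ages did not overlap either, with a log2 change of -0.65 ± 0.36 (SE; edgeR adjusted p = 0.968). Psmd13, a lid scaffold subunit, was at 43.9, 71.9 and 83.4 CPM at 24 months, against 127.8, 114.7 and 74.1 CPM at 3 months, with overlap and a log2 change of -0.67 ± 0.36 (SE).

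No member of this group passed the test. With each library left out in turn, 6 to 11 of its 11 genes were below 0 and the median ran from -0.45 to -0.12. Without replicate 1 of both ages, 9 of 11 were below 0 and the median was -0.23. Psmd4, a ubiquitin receptor and the group's gene of highest TPM, was at 177.1, 118.1 and 183.1 CPM at 24 months, against 151.0, 182.7 and 170.4 CPM at 3 months (log2 change -0.08 ± 0.24, SE). Psmd3 was at 64.2, 42.0 and 45.2 CPM at 24 months, against 110.9 CPM in replicate 1 and 25.2 and 24.6 CPM in the others of 3 months. Its log2 change was -0.09 ± 0.66 (SE) with that library and 1.01 without it. It was also above 0, at 0.02, without replicate 2 of 24 months, so its direction did not hang on that library alone.

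Among the 19S assembly chaperones, which hold ATPase subunits until the ring is built, all 3 genes were above 0, with a median log2 change of 0.30. Psmd10, also known as gankyrin, was at 75.6, 33.1 and 75.2 CPM at 24 months, against 14.3, 63.0 and 45.8 CPM at 3 months. The ages overlapped, and the log2 change was 0.58 ± 0.63 (SE) with all libraries and -0.01 without replicate 1 of both ages.

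Over the whole complex, the ages did not overlap for 3 of the 36 genes, Psmc1 higher and Psmd11 and Psmd14 lower, against 13.4% of all genes tested (7.26% higher and 6.18% lower). The share was thus no higher than the background.

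**Figure D2:**
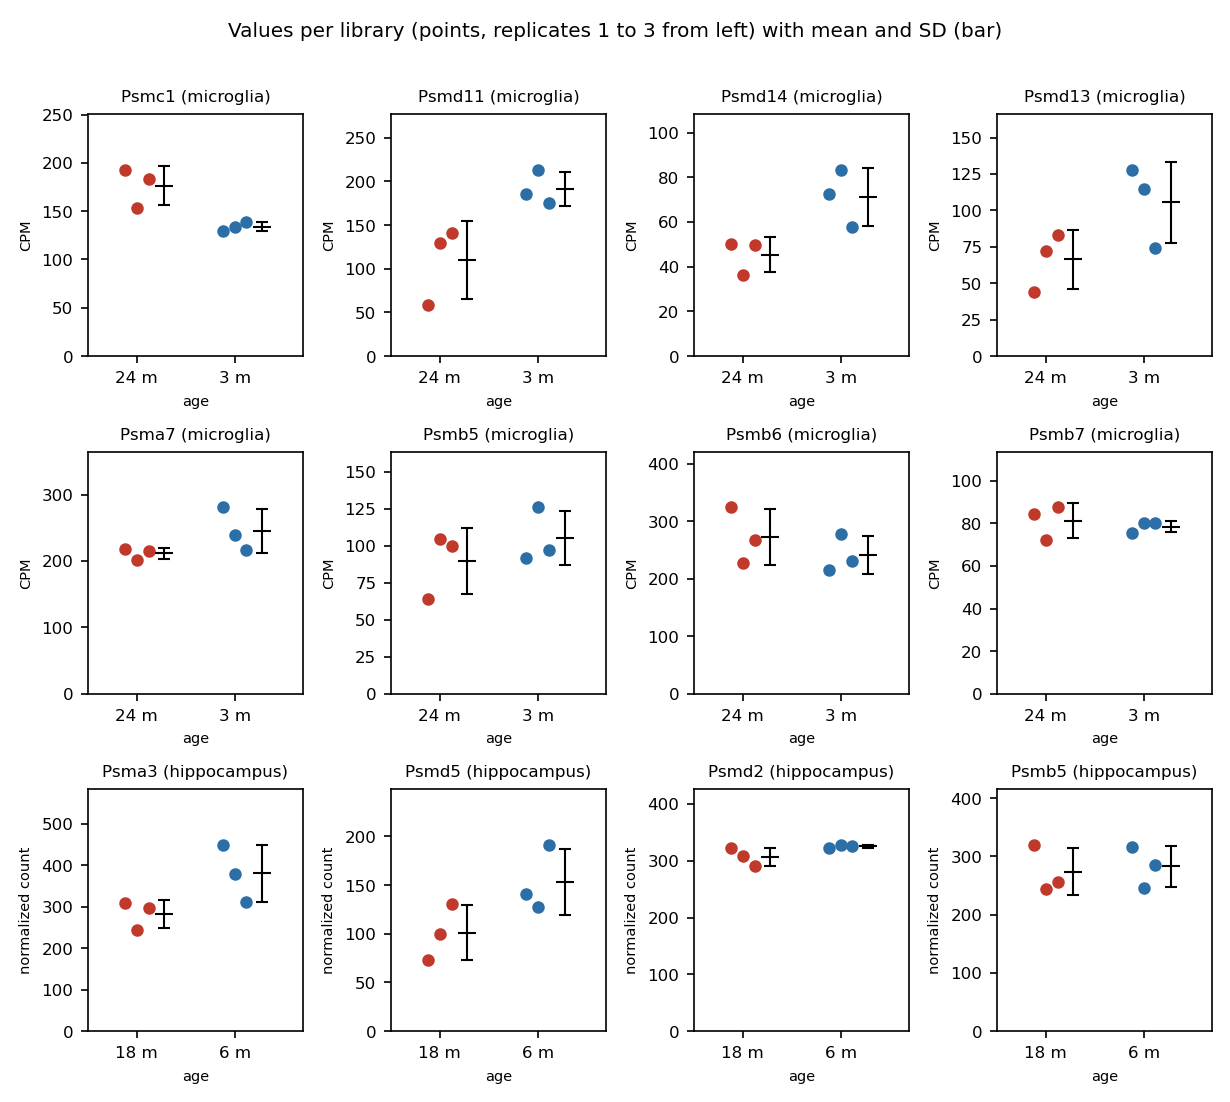
Values of 8 proteasome genes in microglia (CPM, 24 months in red, 3 months in blue) and of 4 in whole hippocampus (normalized counts, 18 months in red, 6 months in blue); points are libraries and bars the mean and SD of 3. The ages separate for Psmc1, Psmd11 and Psmd14 in microglia and for Psma3 and Psmd2 in hippocampus, and overlap in the other panels.

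The subunits known from testis and thymus gave little signal in microglia. Psma8, the testis alpha subunit, was at 0.106, 5.14 and 6.17 CPM at 24 months, against 0, 2.74 and 9.94 CPM at 3 months, from 1, 51 and 65 counts against 0, 22 and 146. The zero came from a library where 3 counts would be 0.224 CPM. Psmb11, the thymus beta subunit, was at 3.18, 2.82 and 0.949 CPM at 24 months, against 1.49, 0.374 and 1.63 CPM at 3 months. Both genes overlapped between the ages.

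Levels within the complex differed far more between genes than between ages. Per transcript length, the 34 genes other than Psma8 and Psmb11 ran over a factor of 31.0, with Psmb6 the highest and the chaperone Psmd9 the lowest. Psmb6 was at 571.2 ± 79.1 TPM at 24 months and 506.7 ± 80.0 TPM at 3 months (SD, n = 3 each). Next came Psma7, at 376.4 ± 20.2 TPM at 24 months and 429.5 ± 32.2 TPM at 3 months (SD, n = 3 each). Psmb2 was at 401.4 ± 83.0 TPM at 24 months and 393.3 ± 39.7 TPM at 3 months, and Psmb3 at 346.7 ± 37.1 TPM at 24 months and 369.4 ± 75.4 TPM at 3 months (SD, n = 3 each). Psma7, Psmb2 and Psmb3 did not differ from one another beyond this spread. Psmd9 was at 19.1 ± 5.6 TPM at 24 months and 15.7 ± 6.3 TPM at 3 months (SD, n = 3 each). The median TPM of a gene was 154 in the alpha ring, 181 in the beta ring, 169 in the ATPase ring, 99.4 among other 19S subunits and 50.4 among the assembly chaperones at 24 months. At 3 months the same medians were 162, 188, 147, 110 and 44.2 TPM.

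**Figure D3:**
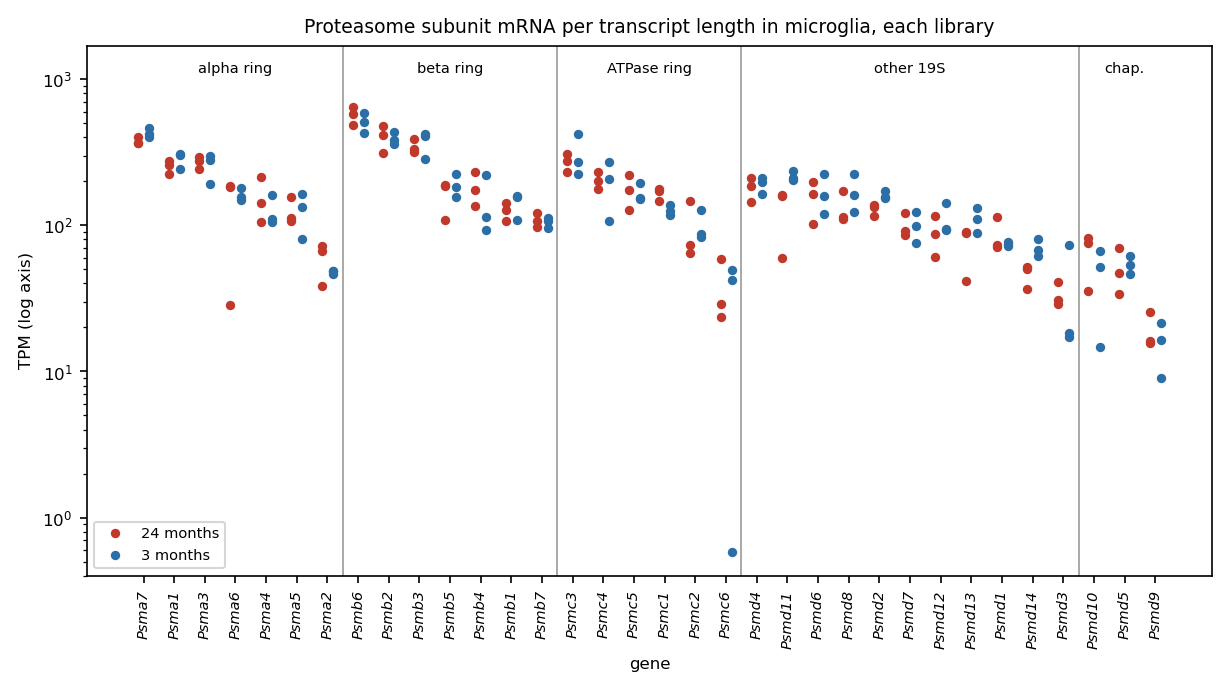
TPM (log axis) of 34 proteasome genes in each of the 6 microglia libraries, 24 months in red to the left of 3 months in blue, ordered by mean within each block. Psmb6 is highest and Psmd9 lowest, and the point at the bottom is Psmc6 in replicate 1 of 3 months.

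The genes also varied little between libraries of the same age. The replicate SD of log2 levels had a median of 0.380 over the 34 genes and 0.784 over all genes tested in microglia. It was smallest for Psmb7, at 0.109, and greatest for Psmc6, at 2.17. In 18 of the 36 genes the highest of the 6 libraries was under 2 times the lowest, against 13.9% of all genes tested. Proteasome genes lie at a median of the 87.6th percentile of level, where counting error is smaller. Among genes with a mean above 100 CPM the same held for 16 of 23 proteasome genes and for 49.3% of all genes.

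In 18 month whole hippocampus, set against 6 month hippocampus, the proteasome genes again had nearly the same summed level. Here only normalized counts, which are counts scaled between libraries, were at hand, so levels of different genes are not compared. The sums were 6254, 5394 and 6149 normalized counts at 18 months, against 6191, 5586 and 6096 at 6 months. At 18 months the sum averaged 5932.0 ± 469.0 and at 6 months 5957.6 ± 325.5 (SD, n = 3 each), a ratio of 0.996. Of the 36 genes, 35 were tested, and Psma8 was not, being listed at 0 in 5 of the 6 libraries and at 3.09 in replicate 1 of 6 months.

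None of the 35 passed limma's test (0 of 35 at an adjusted p under 0.05, against 0% of the 13491 genes tested, in each direction), and the smallest adjusted p was 0.890, for Psmd5. At an unadjusted p under 0.05, 2 of the 35 were lower, Psma3 and Psmd5, and 0 higher, against 3.24% and 2.13% of all genes. The count was 0 without replicate 2 of 18 months or without replicate 1 of 6 months, and at most 3 under any alternative. The authors' deposited table for hippocampus had 36 of 11819 genes (0.305%) at an adjusted p under 0.05 and 0 of 34 proteasome genes, the smallest being 0.432 for Psma3. Log2 changes (18 minus 6 months, of normalized count + 1) had a median of 0.01 with quartiles of -0.10 and 0.16, against a median of -0.04 and quartiles of -0.43 and 0.31 over all genes. They were above 0 in 18 of 35 genes (47.2% of all genes) and beyond 1 in either direction in 2 of 35, Psmb11 and Psmc2 (15.3% of all genes). Of the 35, 29 had a 95% interval within -1 to 1 (25.1% of all genes). Shares among genes of like level were not computed for these counts.

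Psma3, an alpha ring subunit, was at 308.2, 244.4 and 296.8 normalized counts at 18 months, against 448.9, 379.8 and 312.4 at 6 months. The ages did not overlap, and the log2 change was -0.42 ± 0.18 (SE; limma adjusted p = 0.897). Psmd5, a 19S assembly chaperone, was at 73.4, 99.6 and 130.6 normalized counts at 18 months, against 140.5, 127.8 and 191.2 at 6 months. Its ages overlapped by a single library, and the log2 change was -0.61 ± 0.26 (SE; limma adjusted p = 0.890).

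Psmd2, the large scaffold subunit of the 19S base, was at 322.1, 309.2 and 290.6 normalized counts at 18 months, against 322.3, 327.9 and 326.1 at 6 months. The ages just failed to overlap, and the log2 change was only -0.08 ± 0.15 (SE). With Psma3 and Psmb11, that made 3 of 35 genes without overlap, all lower at 18 months, against 11% of all genes (5.93% lower and 5.03% higher). Psmb11 was at 0, 1.22 and 0.775 normalized counts at 18 months, against 2.07, 3.59 and 3.16 at 6 months, values close to 0 at both ages.

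The catalytic subunits differed little between the ages in hippocampus. Psmb5 was at 319.9, 244.8 and 256.2 normalized counts at 18 months, against 317.1, 246.3 and 285.2 at 6 months, a log2 change of -0.05 ± 0.18 (SE). Psmb6 was at 230.0, 226.0 and 260.3 at 18 months, against 239.0, 236.7 and 243.0 at 6 months (log2 change -0.01 ± 0.17, SE), and Psmb7 at 139.9, 158.1 and 149.1 at 18 months, against 150.2, 155.8 and 134.0 at 6 months (log2 change 0.02 ± 0.20, SE). The ages overlapped for all 3, and their 95% intervals lay within -0.43 and 0.45.

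The beta ring as a whole ran from -0.05 to 0.18 in log2 change, its smallest p belonging to Psmb2, at 171.2, 158.1 and 227.3 normalized counts at 18 months, against 177.6, 147.6 and 160.1 at 6 months. In the ATPase ring, Psmc5 was at 315.0, 233.7 and 293.1 normalized counts at 18 months, against 243.5, 243.1 and 306.3 at 6 months (log2 change 0.08 ± 0.18, SE). Psmc2 was listed at 0 in replicate 2 of 18 months and at 166.0 and 118.5 in the other libraries of that age, against 83.0, 155.6 and 165.0 at 6 months. It was 1 of only 2 genes at 0 in that library among 2077 with a mean above 100. Without that library the log2 change was 0.12.

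The replicate SD of log2 levels had a median of 0.220 over 34 proteasome genes and 0.610 over all genes tested in hippocampus, and Psmd2 had the smallest, at 0.0534. The highest of the 6 libraries was under 2 times the lowest in 26 of 35 genes, against 24.1% of all genes tested. Among genes with a mean above 100 normalized counts it was so for 26 of 32 proteasome genes and for 80.2% of all genes, a share close to the background.

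The other 19S subunits had 7 of 11 genes above 0 in hippocampus and a median log2 change of 0.10. Psmd13, with the smallest p of the group, was at 103.7, 165.5 and 111.3 normalized counts at 18 months, against 121.8, 52.9 and 106.8 at 6 months, a log2 change of 0.49 ± 0.32 (SE). The ages overlapped, and without replicate 2 of 6 months, its lowest library, the log2 change was 0.12. Psmd11 was at 73.6, 160.9 and 139.9 at 18 months, against 121.0, 126.1 and 166.2 at 6 months (log2 change -0.20 ± 0.28, SE), and Psmd14 at 244.8, 125.8 and 174.3 at 18 months, against 221.6, 181.8 and 135.4 at 6 months (log2 change -0.01 ± 0.26, SE).

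**Figure D4:**
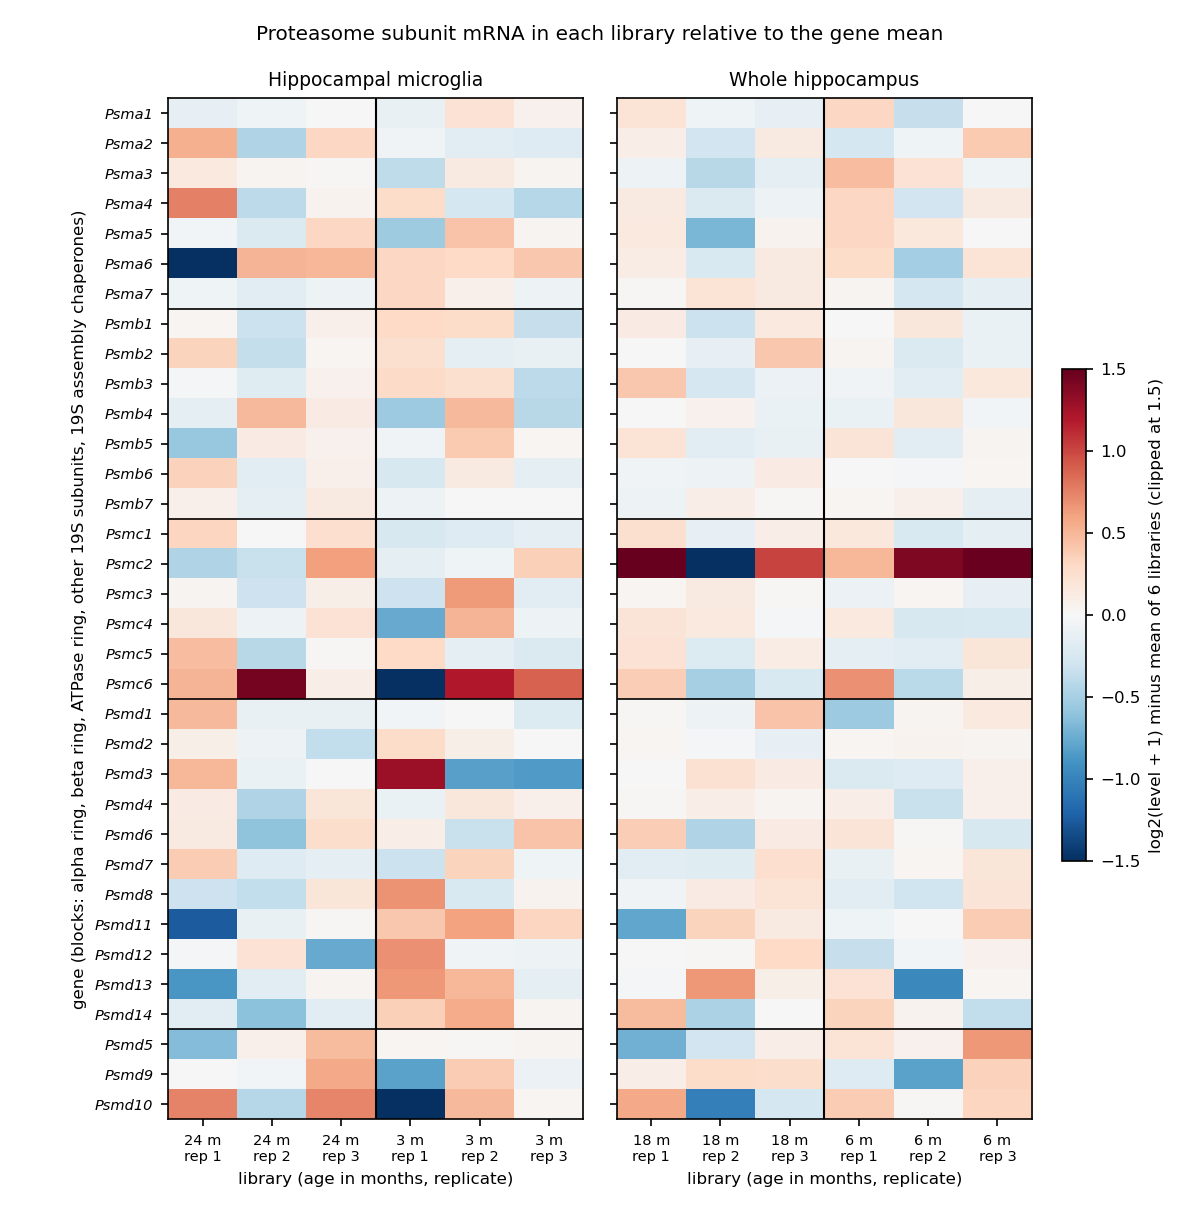
Log2 level of 34 proteasome genes in each library minus the gene's mean over the 6 libraries of its tissue (red higher, blue lower, colour limited to 1.5), with the older libraries left of the line and the younger right of it. Neither tissue shows a block of colour that changes at the line. Single dark cells mark Psma6, Psmc6, Psmd3, Psmd10 and Psmd11 in microglia and Psmc2 in hippocampus.

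Between the tissues, 7 of the 35 genes tested in both were above 0 in both, 6 below 0 in both and 22 opposite. Over these 35 genes, which share libraries within each tissue, the log2 changes had a Pearson r of -0.30 and a Spearman rho of -0.24. Without Psmb11 and Psmc2 the values were -0.23 and -0.18 over 33 genes. The ages differ between the tissues, and no difference between them was tested.

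Genes that work with the proteasome were not called in either tissue by the tests run here, while the authors' deposited table called Ubr4 in hippocampus. Of the genes in the lists of immunoproteasome subunits, activators and inhibitor, other components, core assembly chaperones, regulators, ubiquitin genes and substrate delivery factors, 0 had an adjusted p under 0.05 (edgeR in microglia, limma in hippocampus). At an unadjusted p under 0.05 there was 1 of 41 in microglia, Ubb, and there were 2 of 41 in hippocampus, Ubb and Ubr4, all higher, against 3.52% of all genes tested higher in microglia and 2.13% in hippocampus, and 0 lower. The core assembly chaperones had 0 of 5 genes above 0 in microglia (median log2 change -0.23) and 4 of 5 in hippocampus (median 0.12). The immunoproteasome genes had 1 of 3 above 0 in microglia (median -0.09) and 3 of 3 in hippocampus (median 0.73). In hippocampus the log2 change was 0.47 ± 0.83 for Psmb8, 1.04 ± 0.92 for Psmb9 and 0.73 ± 0.46 for Psmb10 (SE). The ages overlapped for all 3. Psmb8 stood at only 3.77 to 21.5 normalized counts and Psmb9 at 0 to 4.79. The summed microglial markers were also higher at 18 months there, and their part was not tested. The activators and the inhibitor, which dock on the core in place of the 19S particle or block it, had 3 of 5 above 0 in microglia (median 0.02) and 3 of 5 in hippocampus (median 0.01). Psme4, the activator PA200, was at 23.9, 14.7 and 10.4 CPM in microglia of 24 months, against 4.33, 0.873 and 8.17 CPM at 3 months, without overlap (log2 change 1.87 ± 1.16, SE; edgeR adjusted p = 0.973). Also without overlap in microglia were 1 of 9 other components, higher, and 1 of 3 immunoproteasome genes and 1 of 8 substrate delivery factors, lower (all genes: 7.26% higher, 6.18% lower). In hippocampus 1 of 9 other components, 1 of 9 substrate delivery factors and 1 of 5 ubiquitin genes were higher without overlap, and 0 lower (all genes: 5.03% higher, 5.93% lower).

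Other components, such as the ubiquitin receptor Adrm1, had 6 of 9 above 0 in microglia (median log2 change 0.19) and 7 of 9 in hippocampus (median 0.22). Substrate delivery factors, such as the unfoldase Vcp, had 3 of 8 above 0 in microglia (median -0.22) and 6 of 9 in hippocampus (median 0.05). Regulators of proteasome genes had 3 of 6 above 0 in microglia (median -0.24) and 3 of 5 in hippocampus (median 0.03). Nfe2l1, which encodes NRF1, was at 60.0, 26.5 and 22.1 CPM in microglia of 24 months, against 77.0, 50.3 and 42.9 CPM at 3 months (log2 change -0.65 ± 0.54, SE), with overlap. With each library left out in turn it ran between -1.23, without replicate 1 of 24 months, and -0.37, without replicate 1 of 3 months. Nfe2l2, which encodes NRF2, was at 436.5, 413.2 and 331.6 CPM at 24 months, against 305.7, 220.7 and 337.6 CPM at 3 months, also with overlap (log2 change 0.45 ± 0.22, SE; edgeR adjusted p = 0.958).

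The genes of ubiquitin and its activation had 4 of 5 above 0 in microglia, with a median log2 change of 0.55, the highest of these lists, and 4 of 5 in hippocampus, with a median of 0.12. Ubb, a polyubiquitin gene, was at 6277, 5203 and 3019 CPM in microglia of 24 months, against 2390, 3381 and 2884 CPM at 3 months. Replicates 1 and 2 of 24 months were high and replicate 3 lay among the young libraries, and the log2 change was 0.74 ± 0.29 (SE; edgeR adjusted p = 0.871). With each library left out in turn the log2 change was 0.50 to 0.97. The lower end came without replicate 1 of 24 months, the library with high S100a8 and S100a9. The upper end came without replicate 3 of 24 months (edgeR adjusted p = 0.111). Without replicate 1 of both ages the log2 change was 0.40. Genes that encode ubiquitin hold near-identical repeats, so reads could be split between them. In hippocampus Ubb was at 3649, 3402 and 3874 normalized counts at 18 months, against 3013, 2930 and 3143 at 6 months, without overlap (log2 change 0.26 ± 0.11, SE; limma adjusted p = 0.890).

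**Figure D5:**
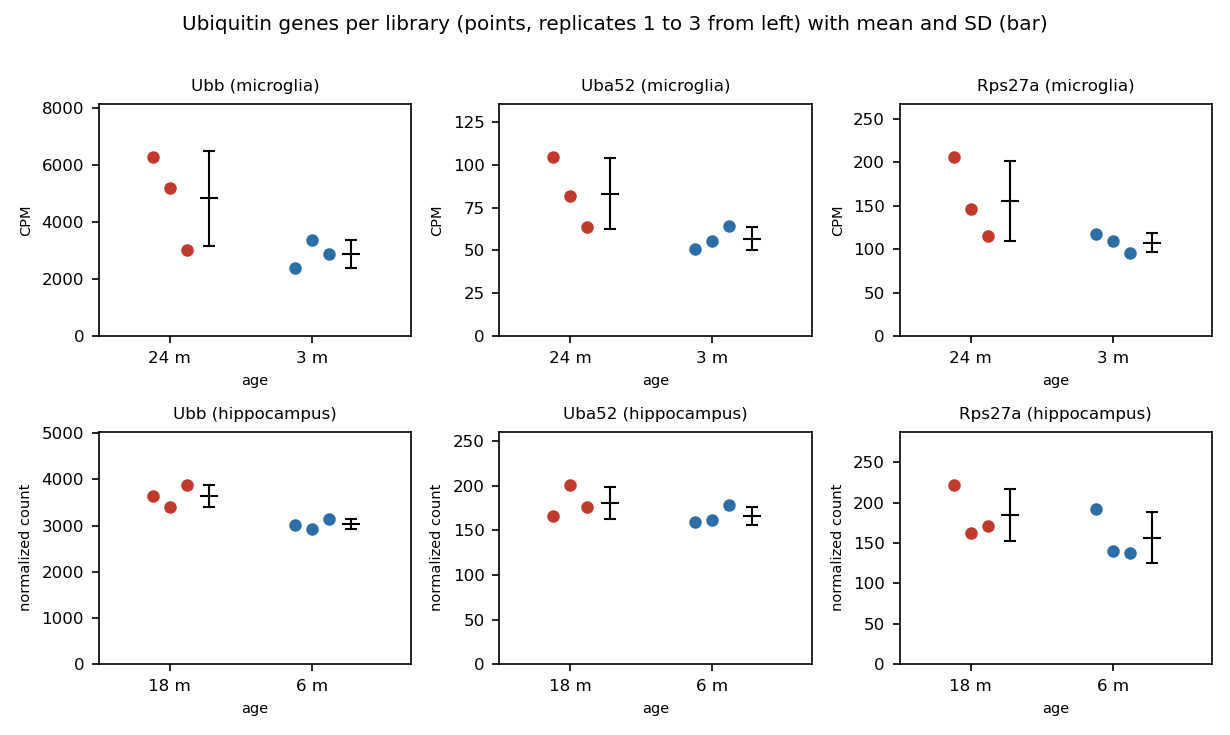
Levels of 3 ubiquitin genes in microglia (top, CPM, 24 months in red left of 3 months in blue) and in whole hippocampus (bottom, normalized counts, 18 months in red left of 6 months in blue); points are libraries and bars the mean and SD of 3. In microglia Ubb is high in replicates 1 and 2 of 24 months, and replicate 3 lies with the young libraries.

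Ubr4, a ubiquitin ligase that binds the proteasome, was at 101.9, 196.8 and 199.4 normalized counts in hippocampus of 18 months, against 85.1, 70.4 and 86.6 at 6 months. The ages did not overlap, and the log2 change was 0.97 ± 0.28 (SE; limma adjusted p = 0.877). In the authors' deposited table it had a log2 change of 1.05 and an adjusted p of 0.0316, turned here to 18 minus 6 months. It was the one gene of these lists below 0.05 there for hippocampus, where 36 of 11819 genes (0.305%) were below it. In microglia Ubr4 was at 61.2, 117.4 and 73.7 CPM at 24 months, against 58.1, 52.5 and 71.1 CPM at 3 months, with overlap and a log2 change of 0.47 ± 0.36 (SE; edgeR adjusted p = 0.993). Without replicate 2 of 24 months, its highest library, the log2 change was 0.15.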

How the data were processed

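For the microglia, the authors deposited, per the file headers, a TPM value, an estimated count and an average transcript length for each gene in each library. For each tissue the authors also deposited normalized counts (a signal scaled between libraries), their mean, the log2 change and its error, the Wald score and raw and adjusted p-values, per the file headers. The submitters' processing notes name kallisto, DESeq2 and DESeq without versions, and 2 builds, GRCm39 and mm10, which they do not assign to files. Per the labels' protocols, cDNA was made from 5 ng of total RNA with an oligo-dT primer and amplified in 12 PCR cycles. No molecular identifiers and no strand were named, so floors cover counting error only and overlapping genes cannot be told apart (9 of the 36 genes overlap another).

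Estimated counts were rounded and tested with edgeR 4.0.16 in R 4.3.3 (TMM scaling, filterByExpr, 10663 genes). CPM use TMM-scaled library sizes. The hippocampus table used here gives normalized counts only, so limma 3.58.1 with a mean trend was run on log2(normalized count + 1) for the 13491 genes that reached 1 in 3 or more libraries; such changes understate those of low genes. Tests were two-sided, with Benjamini-Hochberg adjustment over every gene tested and a threshold of 0.05, and intervals are 95%. Log2 values of the deposited hippocampus table run 6 over 18 months and were turned round. The scripts were tested on simulated data. Sample columns matching no sample numbered 0. The entry without a gene name was left out (0.0546% to 0.0771% of counts in microglia, 0.0233% to 0.0335% of signal in hippocampus). The hippocampus columns summed to 974126 to 1002529, and their read depth is unknown.

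The genes described, the lists of related genes and the markers were chosen with earlier results of these data known. Named by rule were the catalytic subunits and, in each structural group and tissue, the gene with the smallest p and the gene with the highest mean (TPM in microglia). Psma6, Psmc6, Psmd3, Psmd13 and Psmd14 in microglia, Psmd11, Psmd14 and Psmc2's missing library in hippocampus, Nfe2l1, Nfe2l2, Psme4, Ubb and Ubr4 were chosen after their values were seen. DESeq2 1.42.0, other scalings, filters and pseudocounts, a replicate block and the omission of each library were alternatives. Some results on the ubiquitin genes are not reported here.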

Additional observations from a re-analysis of the deposited data

How the results depend on the processing

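Under every alternative run, 0 proteasome genes were called in either tissue, and the smallest adjusted p reached was 0.451 in microglia and 0.576 in hippocampus. The counts over all genes moved: in microglia DESeq2 called 121 genes higher and 20 lower, and leaving out a library gave 0 to 50 higher and 0 to 5 lower, the upper ends without replicate 3 of 24 months, where edgeR with all libraries called 0. In hippocampus leaving out a library gave 0 to 1 gene higher, the upper end without replicate 1 of 6 months. The median log2 change of the proteasome genes ran from -0.14 (without replicate 3 of 24 months) to 0.085 in microglia and from -0.03 to 0.10 in hippocampus with a library left out, and the ratio of summed levels from 0.929 to 1.01 and from 0.966 to 1.04. Signs of single genes near 0 turned often, in up to 8 of 36 and 8 of 35 genes with a library left out, and in 15 of 36 without replicate 1 of both ages, an alternative chosen after seeing the data. Of the values of single genes under the alternatives, 11 of 432 in microglia and 7 of 419 in hippocampus moved by more than the standard error of the change; the cause was not tested. Over all genes tested, same-numbered libraries showed little shared deviation (r of 0.065, 0.012 and -0.027 in microglia, 0.012, 0.009 and 0.014 in hippocampus). A value over all genes cannot show whether such libraries shared a batch that touched only part of them, so it does not settle pairing. With the replicate block, 0 genes were called in all and 0 proteasome genes in either tissue, and it changed no call at an adjusted p under 0.05. At an unadjusted p under 0.05 the block took proteasome genes to 1 (Psmd11, 0 without it) in microglia and to 3 (Psmc2 added to 2) in hippocampus. With 3 libraries a group, depth and number limit what could be seen: the median standard error of a proteasome gene's log2 change was 0.31 in microglia and 0.21 in hippocampus.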
